A study of Mus musculus with 8 samples.

Results

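Adipocyte precursors (APs) are the mesenchymal cells from which the fat cells of the dermis arise. The genes described here encode the enzymes and transporters of glycolysis, lactate handling, pyruvate dehydrogenase control, the pentose phosphate pathway and glycogen metabolism. They were chosen by name: every row of the deposited isoform table whose gene column equals 1 of 45 listed symbols. All 45 were found, in 80 isoform rows, out of 24356 gene symbols and 34535 rows in all. RNA was sequenced from dermal APs that had been sorted by flow cytometry. All mice were C57/Bl6 males aged 7 weeks, and 2 samples came from the wound bed at day 5 and 6 from nonwounded dorsal skin. The surface markers used for the sort, and whether a sample came from 1 animal or was pooled, are not given in the sources used here. The table holds a single FPKM per group and isoform (fragments scaled to transcript length and library size) and the Cuffdiff p-value of the comparison. It has no value per sample, so the values below carry no SD, the overlap of single samples could not be seen, and sequencing depth is unknown. Nothing in the labels says that the samples came from separate animals, so the p-values cannot be read as measuring the spread between animals. How far the division of reads among the isoforms of a gene enters these p-values was not tested.

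Glycolysis splits glucose into pyruvate. Glucose enters through transporters of the SLC2A family, is trapped by hexokinase, committed by phosphofructokinase and, after the steps of the triose phosphates, yields pyruvate through pyruvate kinase. Pyruvate is reduced to lactate by lactate dehydrogenase and exported by monocarboxylate transporters, or enters mitochondria through the pyruvate dehydrogenase complex, which PDK kinases switch off. The pentose phosphate pathway branches off after hexokinase and provides NADPH and ribose. Many of these steps have several isozymes encoded by separate genes, and several of the genes are well known targets of the hypoxia-inducible factors.

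The pyruvate kinase gene Pkm shows the kind of difference that the isoform table can resolve. Its transcripts carry 1 of a pair of mutually exclusive exons, which give the M1 form (known from muscle and brain) and the M2 form (known from proliferating cells). Both exons have 167 bases and lie on the plus strand of chromosome 9 in GRCm38, at chr9:59675029-59675195 for the exon of NM_001253883 (M1) and chr9:59675568-59675734 for that of NM_011099 (M2). Compared position by position, 103 bases are equal (61.7%) and 64 differ. The sequences are from GENCODE M21 transcripts, 5′ to 3′, and capitals mark the bases that differ between the pair.
Pkm M1 exon: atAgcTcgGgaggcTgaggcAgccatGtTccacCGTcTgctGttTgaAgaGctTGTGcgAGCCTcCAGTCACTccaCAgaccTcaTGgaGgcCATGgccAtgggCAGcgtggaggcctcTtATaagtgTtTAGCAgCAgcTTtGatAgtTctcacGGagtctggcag
Pkm M2 exon: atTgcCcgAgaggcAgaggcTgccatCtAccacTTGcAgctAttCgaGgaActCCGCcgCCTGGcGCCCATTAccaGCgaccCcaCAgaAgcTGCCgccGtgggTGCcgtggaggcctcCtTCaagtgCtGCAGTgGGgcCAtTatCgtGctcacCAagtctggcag

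The promoter windows of the 3 members with the largest called rises (Hk2, Slc2a1 and Pkm) and of the most abundant member without a call (Aldoa) are shown for the hypoxia response core, searched as ACGTG or GCGTG on both strands. Each window runs from 250 bases before to 50 bases after an annotated gene start, as given by RefSeq for GRCm38.p6, 5′ to 3′ on the strand of the gene. Capitals mark the matches of the core on either strand. The windows are chr6:82774405-82774704 (minus strand) for Hk2, chr4:119108495-119108794 (plus strand) for Slc2a1, chr9:59656326-59656625 (plus strand) for Pkm and chr7:126800398-126800697 (minus strand) for Aldoa.
Hk2 promoter: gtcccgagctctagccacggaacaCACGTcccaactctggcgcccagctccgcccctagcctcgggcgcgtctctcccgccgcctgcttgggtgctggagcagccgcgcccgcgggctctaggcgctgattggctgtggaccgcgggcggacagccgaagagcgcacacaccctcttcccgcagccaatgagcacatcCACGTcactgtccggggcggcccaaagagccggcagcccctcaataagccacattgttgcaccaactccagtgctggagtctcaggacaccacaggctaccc
Slc2a1 promoter: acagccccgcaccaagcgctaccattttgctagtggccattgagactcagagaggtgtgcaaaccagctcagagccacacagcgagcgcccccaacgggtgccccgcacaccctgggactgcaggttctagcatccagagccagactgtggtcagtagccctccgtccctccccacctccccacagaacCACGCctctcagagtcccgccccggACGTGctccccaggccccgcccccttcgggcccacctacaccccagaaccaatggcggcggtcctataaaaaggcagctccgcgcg
Pkm promoter: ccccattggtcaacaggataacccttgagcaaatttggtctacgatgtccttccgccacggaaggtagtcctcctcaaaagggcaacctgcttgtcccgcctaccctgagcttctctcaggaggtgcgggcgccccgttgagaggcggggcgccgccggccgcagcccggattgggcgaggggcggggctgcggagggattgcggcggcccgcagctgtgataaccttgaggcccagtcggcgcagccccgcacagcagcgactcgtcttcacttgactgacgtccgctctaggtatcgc
Aldoa promoter: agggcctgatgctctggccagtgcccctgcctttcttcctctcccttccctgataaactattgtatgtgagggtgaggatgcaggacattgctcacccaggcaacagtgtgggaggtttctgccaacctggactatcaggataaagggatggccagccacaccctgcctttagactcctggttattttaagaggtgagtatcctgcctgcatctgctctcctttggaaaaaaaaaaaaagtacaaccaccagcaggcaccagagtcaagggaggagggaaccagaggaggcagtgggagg

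The windows of Hk2 and Slc2a1 held 2 matches each, and those of Pkm and Aldoa held 0. RefSeq windows were matched to 43 of the 45 members (not Slc2a3 and Pdp1), with the window nearest to the annotated start of the major isoform used for each. That start lay farthest from the gene start of the window for Gapdh (694 bases), G6pdx (314), Eno1 (244) and Pkm (208). The Gapdh window belongs to the start of NM_008084, the Gapdh isoform that was called lower, although the gene is counted below by its major isoform, which was called higher. The Pkm window lies by the start of the M1 isoform NM_001253883 (59656573 in GENCODE M21), which was not called. The M2 isoform NM_011099, which was called higher, starts at 59656368, so the window covers little sequence before that start. The core was present in 33 of these 43 windows (76.7%). It was present in 43.8% of all 32851 windows of the table and in 61.7% of the first windows of 10222 genes with a tested isoform. Among members called higher 10 of 13 windows held it (76.9%), among members not called 20 of 26 (76.9%), and among members called lower 2 of 3. The variant ACGTG, with or without GCGTG, was in 8 of 13 windows of members called higher and in 10 of 26 of those not called. It was in 25.3% of the windows of genes with a tested isoform. The variant GCGTG was in 7 of 13 windows of the members called higher (53.8%), in 16 of 26 of those not called (61.5%), and in 50.4% of the windows of genes with a tested isoform. The E box CACGTG, which contains the core, was in 4 of 43 member windows (9.30%), against 10.0% for genes with a tested isoform. These matches describe letters in a window only. The median GC content was 61.0% for member windows, 60.3% for genes with a tested isoform and 52.7% over all windows.

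In wound bed APs, 9 of 23 tested genes of the route from glucose to lactate rose (Slc2a1, Hk2, Pfkl, Tpi1, Gapdh, Pgk1, Pgam1, Pkm and Ldha), 1 fell (Pgam2) and 13 were not called, among them Gpi1, Aldoa and Eno1. Of 7 genes of the pentose phosphate branch 0 rose and 2 fell (G6pdx and Rpia). The major isoform of a gene is here the tested isoform with the highest sum of both group values, and 44 of the 45 members had one. An isoform was called at a Benjamini-Hochberg adjusted p under 0.05, computed over all 17775 isoforms that the authors' table marks as tested. By this rule 13 of 44 members were called higher in the wound bed (29.5%) and 3 lower (6.82%). Over the major isoforms of all 13718 tested genes, 7.01% were called higher and 8.67% lower (15.7% in either direction), so the share of members called higher lay above the background and the share called lower near it. Wound bed over nonwounded, the 44 members had a median log2 fold change of 0.37, against -0.14 over all major isoforms with a value. All members reached an FPKM sum over isoforms of at least 1 in the higher group. Of the called members, 10 had the smallest adjusted p that the table allows, 0.000882, and this value holds below for Slc2a1, Hk2, Pfkl, Tpi1, Gapdh, Pgk1, Pkm, Ldha, Pdk1 and Gys1. The members were chosen as a pathway with earlier results of these data known, and no test of the list was made.

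**Figure D1:**
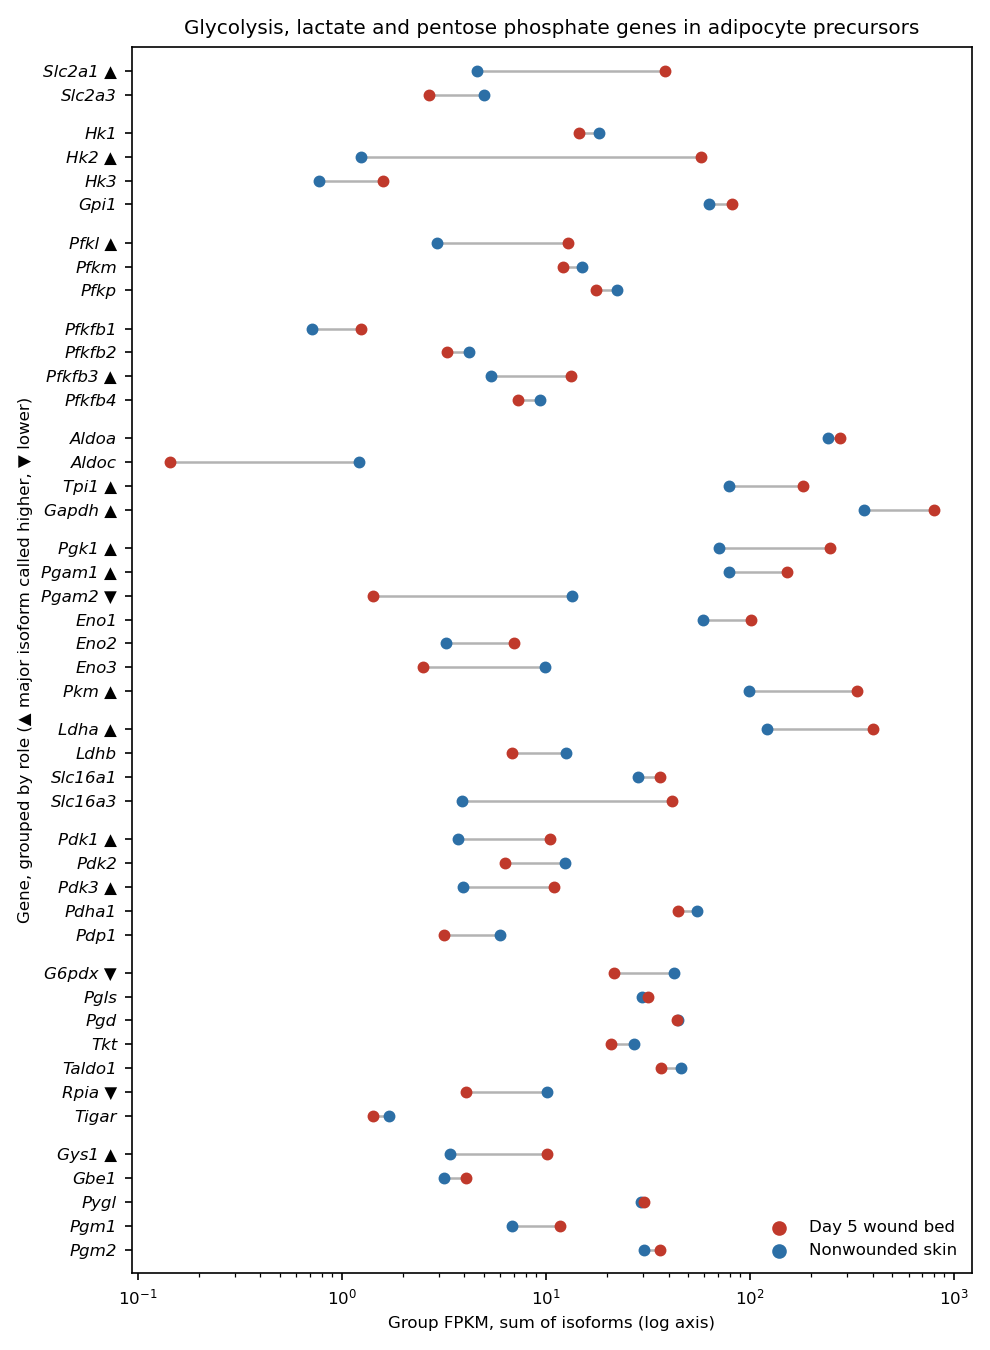
Group FPKM summed over the isoforms of each gene (horizontal log axis) for the 45 members (rows, grouped by role), red for the day 5 wound bed and blue for nonwounded skin, with triangles after the names of genes whose major isoform was called. Hk2 spans the widest called rise, 57.6 against 1.25, while Pgd lies at 43.8 against 44.4.

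The sorted cells carried the markers of their label in both groups. The summed level of the 12 mesenchymal and precursor markers with a value was 6971 in the wound bed against 9021 in nonwounded skin, and 0 of 12 were called higher and 2 lower. Those 2 were Dpp4, at 66.7 in the wound bed against 211 in nonwounded skin, and Cd24a, at 9.38 in the wound bed against 24.9 in nonwounded skin. Pdgfra, the receptor gene commonly used to mark these cells, stood at 81.2 in the wound bed against 78.8 in nonwounded skin without a call. Markers of other cells differed between the groups. Of 23 tested macrophage and monocyte markers 13 were called higher and 0 lower, with summed levels of 1277 in the wound bed against 482 in nonwounded skin and no marker listed at 0. Of 5 tested neutrophil markers 0 were called at a Cuffdiff adjusted p under 0.05 and 2 (S100a8 and Retnlg) had an unadjusted p under 0.05, with summed levels of 105 in the wound bed against 2.84 in nonwounded skin. In this list Elane was listed at 0 in both groups, and Camp and Ltf at 0 in nonwounded skin. Keratinocyte markers summed to 35.4 in the wound bed against 21.4 in nonwounded skin (2 of 7 called higher) and T cell markers to 1.54 in the wound bed against 0.654 in nonwounded skin (0 of 1 called). Endothelial markers summed to 27.2 in the wound bed against 95.6 in nonwounded skin (1 of 6 called lower), of which Tek, not called, made up 18.4 in the wound bed against 83.1 in nonwounded skin. Pecam1, Cdh5, Kdr, Emcn and Vwf stood slightly higher in the wound bed, none with a call. Mast cell markers summed to 10.3 in the wound bed against 60.1 in nonwounded skin (4 of 6 lower). Markers that were far lower in the wound bed were those of erythroid cells (206 against 3746, 5 of 6 called lower, and the untested Slc4a1 listed at 0 in the wound bed), skeletal muscle (10.5 against 125, 1 of 10 called lower) and mature adipocytes (11.6 against 138, 2 of 9 called lower). The part of these cells in the results below was not tested. In such bulk samples fewer cells of a type and less RNA per cell cannot be told apart.

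**Figure D2:**
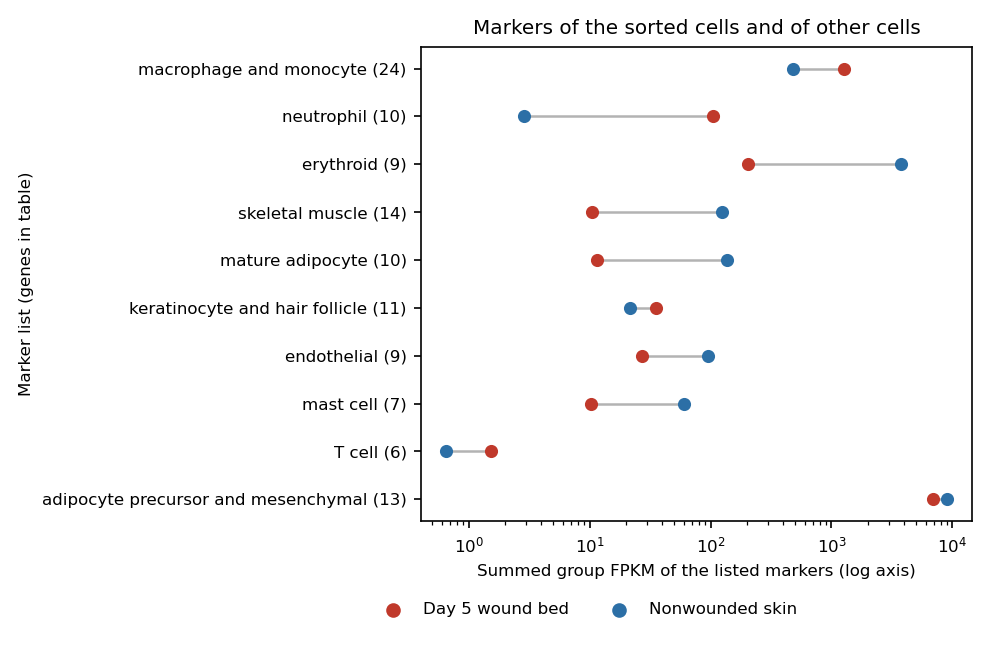
Summed group FPKM (horizontal log axis) of the markers of each cell type (rows, with the number of genes in the table), red for the day 5 wound bed and blue for nonwounded skin. Macrophage markers stand at 1277 against 482, muscle markers at 10.5 against 125, and the precursor markers, at 6971 against 9021, are the highest of the lists in both groups.

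The largest called rises were in glucose entry and its first step. Values without another unit are group FPKM from here on. Slc2a1, the widely expressed glucose transporter GLUT1, rose to 38.4 FPKM in the wound bed, against 4.62 in nonwounded skin, 8.32-fold. Slc2a3, the high-affinity transporter GLUT3, stood at 2.68 in the wound bed against 5.01 in nonwounded skin and was not called (log2 fold change -0.90, Cuffdiff adjusted p 0.120). On the FPKM scale, which is per length, Slc2a1 was thus 93.5% of the sum of both transporters in the wound bed against 48.0% in nonwounded skin.

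Hk2, the inducible hexokinase of muscle and fat, rose to 57.6 in the wound bed, against 1.25 in nonwounded skin, 45.9-fold or 5.52 on the log2 scale. Hk1, the constitutive hexokinase, had a gene sum of 14.5 in the wound bed against 18.2 in nonwounded skin. Hk2 was 78.2% of the hexokinase sum in the wound bed against 6.20% in nonwounded skin, whereas Hk1 was 19.7% in the wound bed against 90.0% in nonwounded skin. The sum of the family was 73.6 in the wound bed against 20.2 in nonwounded skin. Hk3, a hexokinase known from leukocytes, had no tested isoform and summed to 1.60 in the wound bed against 0.778 in nonwounded skin. Gpi1, which encodes the isomerase of glucose and fructose phosphate, stood at 82.0 in the wound bed against 63.1 in nonwounded skin without a call (log2 fold change 0.38, Cuffdiff adjusted p 0.319).

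The Hk1 isoforms diverged. NM_001146100 stood at 14.5 in the wound bed against 10.6 in nonwounded skin, and NM_010438 at 0.0217 in the wound bed against 7.62 in nonwounded skin, neither with a call (Cuffdiff adjusted p 0.454 and 0.382). In GENCODE M21 NM_010438 starts farther upstream and holds 5 exons that the other lacks, while NM_001146100 has 1 exon of its own, its first. The major isoform gave a log2 fold change of 0.45 and the gene sum one of -0.33, so the direction of Hk1 depends on this split.

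Of the phosphofructokinases, which catalyse the committed step, only the liver type gene was called, and the sum of the family barely differed. Pfkl rose to 12.8 in the wound bed, against 2.93 in nonwounded skin, 4.37-fold. Pfkp, the platelet type and the most abundant, stood at 17.0 in the wound bed against 21.3 in nonwounded skin for its major isoform (log2 fold change -0.32, Cuffdiff adjusted p 0.413), and its minor isoform at 0.689 in the wound bed against 1.01 in nonwounded skin. Pfkm, the muscle type, summed to 12.2 in the wound bed against 15.1 in nonwounded skin over isoforms that stood at 8.56 in the wound bed against 10.4 in nonwounded skin (NM_001163487, Cuffdiff adjusted p 0.730), 3.59 in the wound bed against 3.97 in nonwounded skin (NM_001163488), and 0.00969 in the wound bed against 0.737 in nonwounded skin (NM_021514). The family summed to 42.7 in the wound bed against 40.3 in nonwounded skin, and the share of Pfkl was 30.0% in the wound bed against 7.28% in nonwounded skin.

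The PFKFB genes encode bifunctional enzymes that make and remove the sugar bisphosphate which activates phosphofructokinase. Pfkfb3, the form that most favours making the activator, rose to 11.3 in the wound bed, against 3.59 in nonwounded skin, for its major isoform (3.14-fold, Cuffdiff adjusted p 0.0143). A second isoform of Pfkfb3 stood at 1.41 in the wound bed against 0.419 in nonwounded skin without a call (Cuffdiff adjusted p 0.344), and the gene summed to 13.3 in the wound bed against 5.42 in nonwounded skin over its 8 isoform rows. Pfkfb4 stood at 7.30 in the wound bed against 9.35 in nonwounded skin (Cuffdiff adjusted p 0.458). Pfkfb2 had its major isoform at 1.97 in the wound bed against 2.07 in nonwounded skin and its next, NM_001162415, at 0.658 in the wound bed against 1.41 in nonwounded skin (Cuffdiff adjusted p 0.899 and 0.323), and Pfkfb1 stood at 1.24 in the wound bed against 0.719 in nonwounded skin (Cuffdiff adjusted p 0.518). Pfkfb3 made up 52.9% of the family sum in the wound bed against 27.5% in nonwounded skin.

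**Figure D3:**
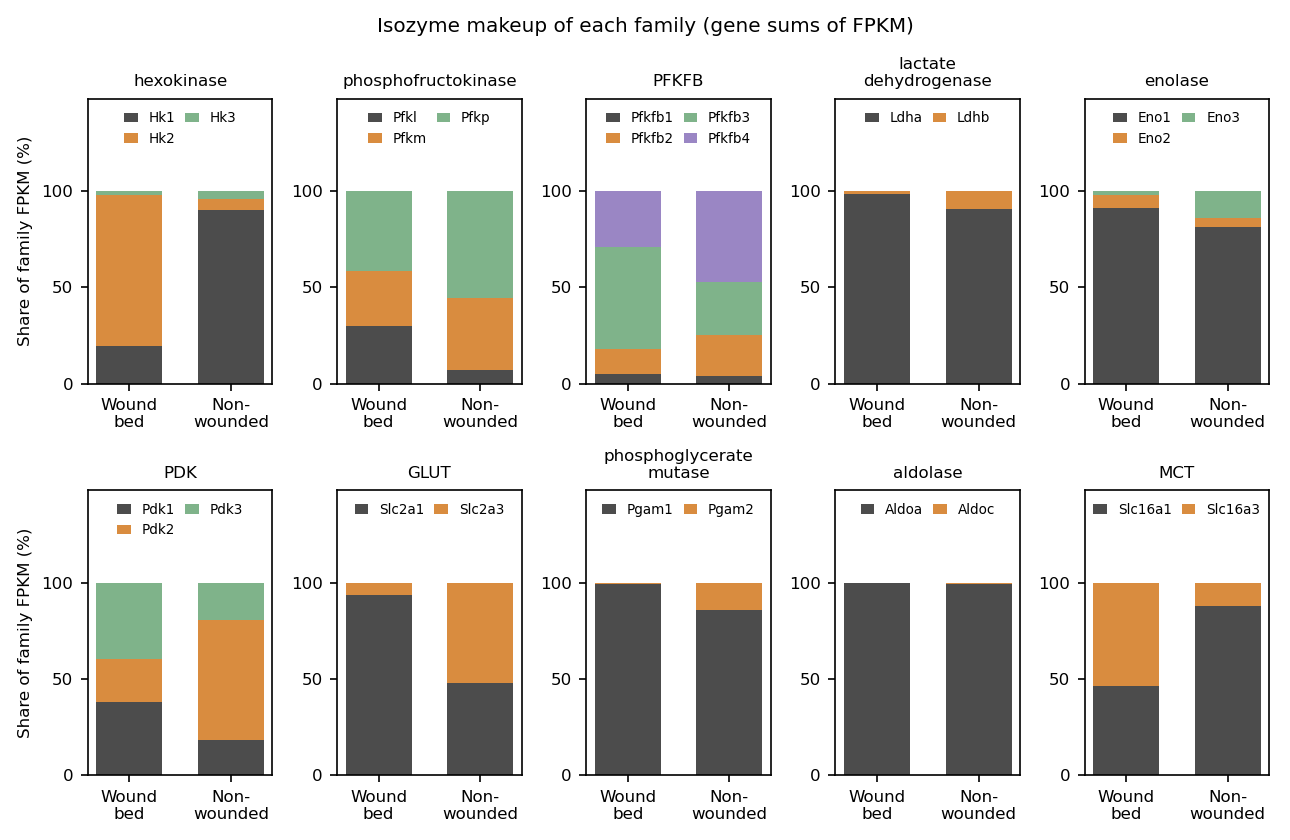
Share of each isozyme gene (vertical axis, percent) in the summed group FPKM of its family, with the wound bed as the left bar and nonwounded skin as the right bar of each panel. Hk2 is 78.2% of the hexokinase sum in the wound bed against 6.20% in nonwounded skin, and Slc16a3 is 53.5% in the wound bed against 12.0% in nonwounded skin of the MCT (monocarboxylate transporter) sum.

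The enzymes that make and handle the triose phosphates include Gapdh, the most abundant member. Aldoa, which encodes the aldolase of muscle and most other tissues, summed to 278 in the wound bed against 242 in nonwounded skin. Its isoforms were not called: NM_001177308 stood at 197 in the wound bed against 141 in nonwounded skin (log2 fold change 0.48, Cuffdiff adjusted p 0.381), NM_007438 at 78.1 in the wound bed against 97.4 in nonwounded skin (-0.32, Cuffdiff adjusted p 0.686), and NM_001177307 at 3.14 in the wound bed against 3.41 in nonwounded skin. Aldoc, the brain aldolase gene, stood at 0.143 in the wound bed against 1.03 in nonwounded skin (Cuffdiff adjusted p 0.201). Tpi1, the triose phosphate isomerase gene, rose to 182 in the wound bed, against 78.9 in nonwounded skin, 2.30-fold.

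Gapdh, which encodes the glyceraldehyde phosphate dehydrogenase often used as a reference gene, had a pair of isoforms called in opposite directions. NM_001289726 rose to 781 in the wound bed, against 201 in nonwounded skin (log2 fold change 1.96). NM_008084 fell to 16.2 in the wound bed, against 164 in nonwounded skin (log2 fold change -3.34, Cuffdiff adjusted p 0.000882). In GENCODE M21 each has 7 exons. The first exons do not overlap, at chr6:125166394-125166467 for NM_001289726 and chr6:125165552-125165773 for NM_008084, and no other exon is specific to either. The gene sum was 798 in the wound bed against 365 in nonwounded skin, 2.18-fold. The loci of Eno2, Tpi1 and Gapdh lie on chromosome 6 between 124760053 and 125166467 in the table, and 8 of the 45 members lie on this chromosome.

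In lower glycolysis Pgk1, Pgam1 and Pkm rose. Pgk1, the phosphoglycerate kinase gene, rose to 248 in the wound bed, against 71.0 in nonwounded skin, 3.49-fold. Pgam1, the phosphoglycerate mutase of most tissues, rose to 153 in the wound bed, against 79.3 in nonwounded skin (1.93-fold, Cuffdiff adjusted p 0.00306), the smallest fold among the 13 members called higher. Pgam2, the muscle mutase gene, fell to 1.42 in the wound bed, against 13.4 in nonwounded skin (log2 fold change -3.23, Cuffdiff adjusted p 0.00769). The muscle enolase gene Eno3 stood at 2.46 in the wound bed against 8.02 in nonwounded skin for its major isoform without a call (Cuffdiff adjusted p 0.104). Its isoform NM_007933 was listed at 0 in the wound bed and stood at 1.47 in nonwounded skin (Cuffdiff adjusted p 0.135). Of 10 tested skeletal muscle markers only 1 was called, Mylpf, the gene of a myosin light chain. It fell to 1.23 in the wound bed, against 31.8 in nonwounded skin. The muscle creatine kinase gene Ckm stood at 0.859 in the wound bed against 5.43 in nonwounded skin without a call. Which cells the Pgam2 and Eno3 transcripts come from was not tested.

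Eno1, the main enolase gene, stood at 101 in the wound bed against 58.7 in nonwounded skin and was not called (log2 fold change 0.78, Cuffdiff adjusted p 0.195). An entry named Eno1b, an enolase gene copy, is listed at the same locus, with 210.1 in the wound bed against 24.7 in nonwounded skin (Cuffdiff adjusted p 0.0865). The entries at this locus summed to 311 in the wound bed against 83.4 in nonwounded skin (1.90 on the log2 scale). How reads were divided between these entries was not tested, so the value of Eno1 alone is uncertain. Eno2, the neuronal enolase gene, stood at 4.39 in the wound bed against 2.46 in nonwounded skin for its major isoform and at 2.63 in the wound bed against 0.800 in nonwounded skin for its second isoform (Cuffdiff adjusted p 0.317 and 0.403).

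At the last step of glycolysis 1 of the 2 Pkm isoforms was called. The Pkm isoform with the M2 exon shown above, NM_011099, rose to 269 in the wound bed, against 61.1 in nonwounded skin, 4.40-fold. The M1 isoform, NM_001253883, stood at 68.4 in the wound bed against 38.6 in nonwounded skin without a call (log2 fold change 0.83, Cuffdiff adjusted p 0.140), although its unadjusted p was under 0.05. The M2 isoform was 79.7% of the gene sum in the wound bed against 61.3% in nonwounded skin. This difference in share could not be tested, since the table has no value per sample. The gene summed to 337 in the wound bed against 99.7 in nonwounded skin.

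**Figure D4:**
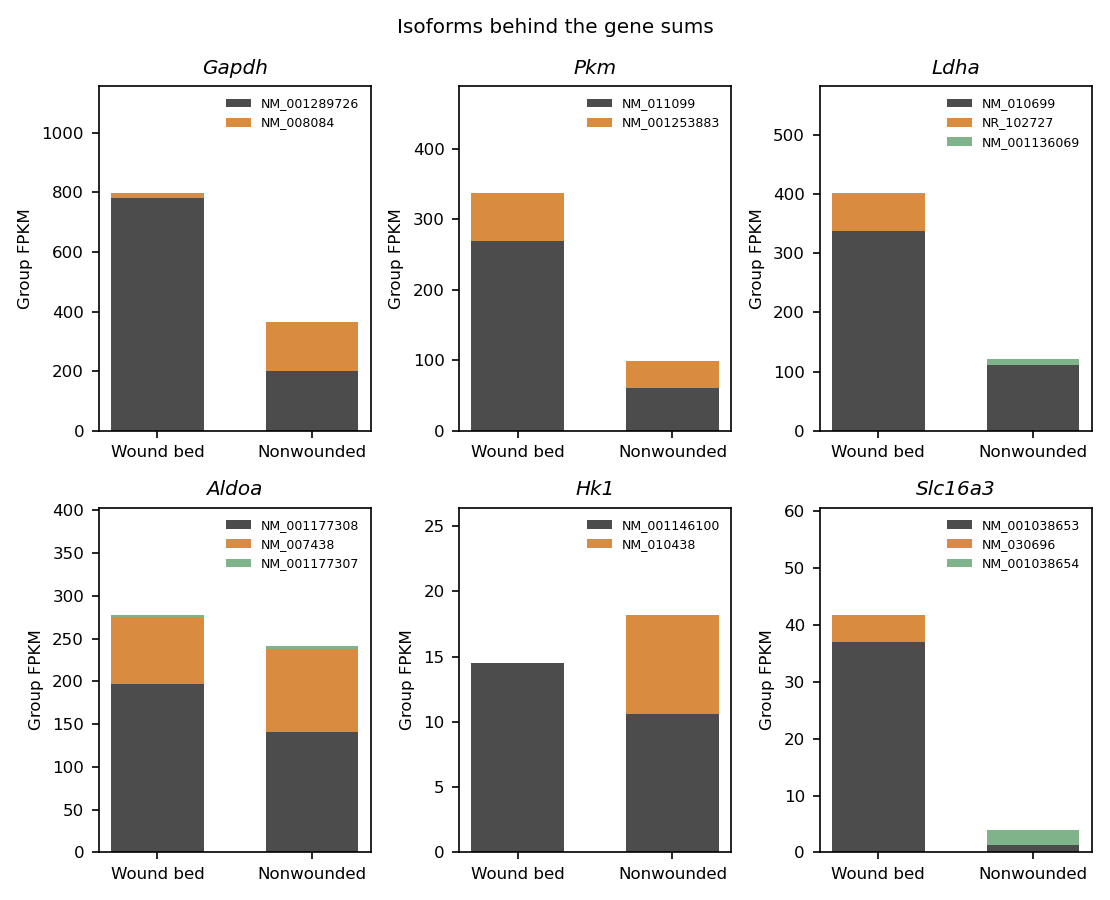
Group FPKM of the isoforms (stacked colours) of 6 members in the wound bed (left bar) and nonwounded skin (right bar), each panel with its own vertical axis from 0. The second isoform of Gapdh stands at 16.2 against 164, and the Pkm M2 isoform NM_011099 at 269 against 61.1.

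For lactate, Ldha, the lactate dehydrogenase subunit that predominates in muscle and glycolytic cells, rose to 338 in the wound bed, against 111 in nonwounded skin, 3.05-fold for its major isoform. Its other isoforms were not called. NR_102727, which GENCODE M21 matches to a transcript subject to nonsense-mediated decay, stood at 62.2 in the wound bed against 0.757 in nonwounded skin (Cuffdiff adjusted p 0.264), and NM_001136069 at 1.23 in the wound bed against 9.60 in nonwounded skin (Cuffdiff adjusted p 0.317). Ldhb, the heart subunit, stood at 6.37 in the wound bed against 11.3 in nonwounded skin for its major isoform and 0.498 in the wound bed against 1.22 in nonwounded skin for the second (Cuffdiff adjusted p 0.259 and 0.740). Ldha was 98.3% of the sum of Ldha and Ldhb in the wound bed against 90.6% in nonwounded skin. The testis gene Ldhc, given below, is not in this sum.

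The monocarboxylate transporter genes move lactate across the plasma membrane. Slc16a1, which encodes MCT1, stood at 36.3 in the wound bed against 28.5 in nonwounded skin (log2 fold change 0.35, Cuffdiff adjusted p 0.369). Slc16a3, which encodes MCT4, the transporter of lactate-exporting cells, summed to 41.8 in the wound bed against 3.88 in nonwounded skin, 10.8-fold, but no isoform was called. NM_001038653 stood at 37.0 in the wound bed against 1.22 in nonwounded skin (Cuffdiff adjusted p 0.202), NM_030696 at 4.79 in the wound bed against 0.00150 in nonwounded skin (Cuffdiff adjusted p 0.470) and NM_001038654 at 0.0237 in the wound bed against 2.66 in nonwounded skin (Cuffdiff adjusted p 0.387), so a different isoform carried most of the gene in each group. Each isoform was tested by itself, and the sum has no p-value in the table.

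Control of pyruvate dehydrogenase differed between the kinases. Pdk1, a kinase gene known as a target of hypoxia-inducible factor, rose to 10.5 in the wound bed, against 3.70 in nonwounded skin, 2.84-fold. Pdk3 rose to 11.0 in the wound bed, against 3.95 in nonwounded skin (2.80-fold, Cuffdiff adjusted p 0.0345). Pdk2, the form of most tissues, stood at 6.31 in the wound bed against 12.5 in nonwounded skin without a call (log2 fold change -0.99, Cuffdiff adjusted p 0.0644). Pdk2 was 22.6% of the sum of these 3 kinases in the wound bed against 62.1% in nonwounded skin. That sum leaves out the kinase gene Pdk4, which is given below. Pdha1, the gene of the catalytic subunit that the kinases phosphorylate, stood at 44.5 in the wound bed against 55.3 in nonwounded skin (Cuffdiff adjusted p 0.414).

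Pdp1, a phosphatase gene of the complex, had 5 isoform rows and no call. NM_001290387 stood at 2.71 in the wound bed against 1.76 in nonwounded skin (Cuffdiff adjusted p 0.551), NM_001098231 at 0.459 in the wound bed against 2.11 in nonwounded skin (Cuffdiff adjusted p 0.446), and NM_001033453 was listed at 0 in the wound bed and stood at 1.37 in nonwounded skin (Cuffdiff adjusted p 0.125). The sum was 3.17 in the wound bed against 5.98 in nonwounded skin (-0.91 on the log2 scale), while the major isoform gave 0.63.

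In the pentose phosphate pathway 0 of 7 members were called higher and 2 lower at an adjusted p under 0.05 from Cuffdiff. These 2 alone had an unadjusted p under 0.05. Over the major isoforms of all tested genes 7.01% were called higher and 8.67% lower, so 0 of 7 called higher does not set this branch apart. G6pdx, the gene of the dehydrogenase that opens the pathway, fell to 21.6 in the wound bed, against 42.5 in nonwounded skin (log2 fold change -0.98, Cuffdiff adjusted p 0.00368). Rpia, the ribose phosphate isomerase gene, fell to 4.05 in the wound bed, against 10.2 in nonwounded skin (-1.33, Cuffdiff adjusted p 0.0357). The lactonase gene Pgls stood at 31.9 in the wound bed against 29.5 in nonwounded skin (Cuffdiff adjusted p 0.839), and Pgd, the second dehydrogenase gene, at 43.8 in the wound bed against 44.4 in nonwounded skin (Cuffdiff adjusted p 0.963). Of the carbon-shuffling enzymes, the transketolase gene Tkt stood at 20.8 in the wound bed against 27.2 in nonwounded skin (Cuffdiff adjusted p 0.317) and the transaldolase gene Taldo1 at 36.7 in the wound bed against 46.0 in nonwounded skin (Cuffdiff adjusted p 0.440). Tigar, a phosphatase gene known to direct glucose into this pathway, stood at 1.42 in the wound bed against 1.71 in nonwounded skin (Cuffdiff adjusted p 0.741). Over the 7 members the median was -0.33 on the log2 scale.

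In glycogen metabolism Gys1, the glycogen synthase gene of muscle and most tissues, rose to 10.2 in the wound bed, against 3.41 in nonwounded skin, 2.99-fold. The branching enzyme gene Gbe1 stood at 4.07 in the wound bed against 3.18 in nonwounded skin (Cuffdiff adjusted p 0.541), and Pygl, the liver type glycogen phosphorylase gene, at 30.4 in the wound bed against 29.3 in nonwounded skin (Cuffdiff adjusted p 0.893). The table and RefSeq for GRCm38.p6 exchange the names of the phosphoglucomutases, which link glycogen to glycolysis. The entry named Pgm1 (NM_025700, RefSeq Pgm2) stood at 11.7 in the wound bed against 6.85 in nonwounded skin (Cuffdiff adjusted p 0.110). The entry named Pgm2 (NM_028132, RefSeq Pgm1) stood at 36.4 in the wound bed against 30.3 in nonwounded skin (Cuffdiff adjusted p 0.500).

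Among isoforms, 13 of 66 tested member isoforms rose (19.7%, against 5.66% of all 17775) and 4 fell (6.06%, against 7.25%). Of the 28 members without a call, 4 had an unadjusted p under 0.05, namely Slc2a3, Eno3, Pdk2 and the entry named Pgm1. At the level of gene sums 8 members exceeded an FPKM of 100 in the wound bed (Aldoa, Tpi1, Gapdh, Pgk1, Pgam1, Eno1, Pkm and Ldha) and 3 in nonwounded skin (Aldoa, Gapdh and Ldha). Ranked by gene sum over all genes, Ldha was at place 205 in the wound bed against 607 in nonwounded skin, Hk2 at 1186 in the wound bed against 12082 in nonwounded skin, and Aldoa at 292 in the wound bed against 323 in nonwounded skin.

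Other carbohydrate genes, a list of 89 of which 87 are in the table and 68 had a tested isoform, were examined beside the members. Of these 68, 7 rose (10.3%, against 7.01% of all genes) and 12 fell (17.6%, against 8.67%), with a median log2 fold change of 0.03. The 68 include 6 regulators, of which 3 rose (Hif1a, Epas1 and Myc) and 1 fell (Txnip), so part of the rises are not carbohydrate enzymes or transporters. Of the 12 that fell, 4 were listed at 0 in the wound bed (Ldhc, Pgk2, Pdha2 and Fbp1). Emb, which encodes a partner protein of monocarboxylate transporters, rose to 28.2 in the wound bed, against 2.03 in nonwounded skin. Bsg, the gene of basigin, another such partner, stood at 358 in the wound bed against 269 in nonwounded skin for its major isoform without a call (Cuffdiff adjusted p 0.321). Slc16a7, which encodes MCT2, fell to 0.673 in the wound bed, against 6.57 in nonwounded skin (Cuffdiff adjusted p 0.0106). Pdk4, the kinase gene known to be induced by fasting, fell to 2.82 in the wound bed, against 12.0 in nonwounded skin, a direction opposite to Pdk1 and Pdk3. Pdhb, of the same complex, stood at 34.6 in the wound bed against 47.0 in nonwounded skin (Cuffdiff adjusted p 0.253).

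Genes of testis-specific isozymes differed sharply between the groups. Ldhc, the lactate dehydrogenase gene of sperm, was listed at 0 in the wound bed and stood at 61.9 in nonwounded skin. Pgk2 and Pdha2 were also listed at 0 in the wound bed and stood at 13.4 and 1.17 in nonwounded skin, and all 3 were called lower with a Cuffdiff adjusted p of 0.000882. Gapdhs summed to 0.161 in the wound bed against 11.9 in nonwounded skin without a call. These 4 genes together stood at 0.161 in the wound bed against 88.3 in nonwounded skin. With no value per sample, it cannot be seen how many of the 6 nonwounded samples carry these transcripts. Whether they come from the sorted precursors or from other cells was not tested. Ldhc, Pgk2 and Pdha2 are among the 12 other carbohydrate genes called lower above. Minor isoforms of the members Hk1, Gapdh and Ldha also stood higher in nonwounded skin (NM_010438, NM_008084 and NM_001136069), and whether these go with the testis-specific genes was not tested.

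On the branch to amino sugars, Gfpt2 encodes the enzyme that opens the hexosamine pathway. It rose to 309 in the wound bed, against 167 in nonwounded skin (log2 fold change 0.89, Cuffdiff adjusted p 0.0442). Uap1 makes the nucleotide sugar of the branch. Its major isoform rose to 81.9 in the wound bed, against 31.3 in nonwounded skin (1.39). The gene sum of Uap1 was 139 in the wound bed against 57.3 in nonwounded skin. Pgm3, of the same branch, fell to 11.7 in the wound bed, against 20.2 in nonwounded skin (-0.78, Cuffdiff adjusted p 0.0301), and Gfpt1 stood at 22.2 in the wound bed against 17.5 in nonwounded skin (Cuffdiff adjusted p 0.359). For glycogen, Ppp1r3b, a subunit that directs a phosphatase to glycogen, rose to 3.22 in the wound bed, against 0.672 in nonwounded skin (Cuffdiff adjusted p 0.0102). Stbd1, a glycogen-binding protein gene, fell to 12.6 in the wound bed, against 28.2 in nonwounded skin (Cuffdiff adjusted p 0.00239), and Phkg2, a phosphorylase kinase gene, to 5.32 in the wound bed, against 14.0 in nonwounded skin (Cuffdiff adjusted p 0.0387). The major isoform of the lysosomal glucosidase gene Gaa stood at 62.3 in the wound bed against 43.6 in nonwounded skin (Cuffdiff adjusted p 0.197). Its gene sum was 70.5 in the wound bed against 62.8 in nonwounded skin (0.17 on the log2 scale).

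Of the gluconeogenic genes, Pck2, the mitochondrial carboxykinase, fell to 9.49 in the wound bed, against 21.2 in nonwounded skin (log2 fold change -1.16). Fbp1, the fructose bisphosphatase gene, was listed at 0 in the wound bed, stood at 4.51 in nonwounded skin and was called. G6pc3 stood at 16.8 in the wound bed against 13.8 in nonwounded skin (Cuffdiff adjusted p 0.598). Shpk, the sedoheptulose kinase gene, fell to 2.37 in the wound bed, against 6.27 in nonwounded skin (Cuffdiff adjusted p 0.0431). The remaining examples, H6pd, Bpgm, Adpgk and the transporter gene Slc2a10, were not called. The major isoform of H6pd stood at 36.4 in the wound bed against 14.2 in nonwounded skin (Cuffdiff adjusted p 0.187). Its gene sum was 37.2 in the wound bed against 21.5 in nonwounded skin (0.79 on the log2 scale). Bpgm stood at 7.71 in the wound bed against 10.1 in nonwounded skin. Adpgk stood at 15.6 in the wound bed against 12.6 in nonwounded skin, and Slc2a10 at 13.9 against 13.7.

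Among regulators of these genes, the hypoxia-inducible factor genes rose. Hif1a stood at 100.4 in the wound bed against 19.3 in nonwounded skin (log2 fold change 2.38), and Epas1, which encodes the HIF-2 alpha subunit, at 12.1 in the wound bed against 1.15 in nonwounded skin (3.40), both called with a Cuffdiff adjusted p of 0.000882. The major isoform of Arnt, the gene of their shared partner, stood at 16.6 in the wound bed against 16.2 in nonwounded skin (Cuffdiff adjusted p 0.936). Myc is a transcription factor gene that also acts on glycolytic genes. Its major isoform rose to 80.9 in the wound bed, against 10.9 in nonwounded skin (2.89). The gene sum of Myc was 140.5 in the wound bed against 14.9 in nonwounded skin. Txnip, which encodes an inhibitor of glucose uptake, fell to 32.6 in the wound bed, against 194 in nonwounded skin, for its major isoform (-2.57). Its gene sum was 57.1 in the wound bed against 357 in nonwounded skin.

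**Figure D5:**
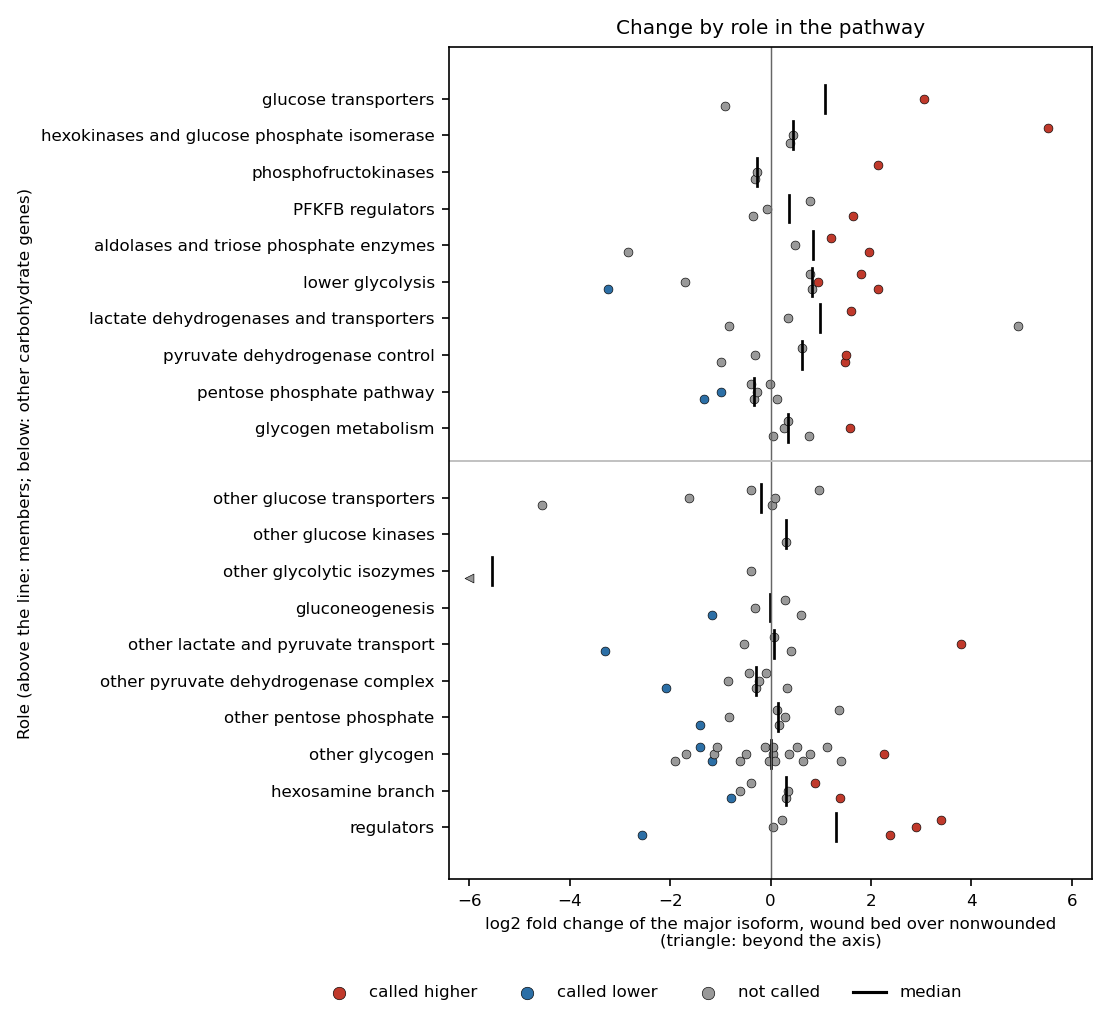
Log2 fold change of the major isoform, wound bed over nonwounded (horizontal axis), 1 point per gene, by role (rows, members above the line and other carbohydrate genes below it), with called rises in red, called falls in blue and the rest in grey, with a bar at the median of each row. A gene at 0 in a group has no fold change and is left out, and a triangle marks a value beyond the axis. Hk2 lies at 5.52, the pentose phosphate members have a median of -0.33, and the other glycogen genes a median of 0.00.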

How the data were processed

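Per the labels' protocols, sorted APs of 2 wound bed and 6 nonwounded samples gave mRNA libraries by the Illumina TruSeq method. The submitters' processing notes name TopHat2 2.0.2, Cuffdiff 2.0.2 and the build mm9. The deposited table gives FPKM, 1 value per group pooled over its samples by the authors, and the authors' Cuffdiff p-value for each isoform. No count test could be run on FPKM, and the number of per-sample columns not used was 0. The deposited log2 fold change runs nonwounded over wound bed (24854 of 24854 comparable rows, within 0.01), so fold changes were computed anew as wound bed over nonwounded, without a pseudocount and not where a group is listed at 0. Benjamini-Hochberg adjustment over 17775 tested isoforms gave the deposited significance call in all 34535 rows. The adjustment was tested on simulated data. The loci of 42 of 45 members started or ended within 100 bases of the RefSeq GRCm38.p6 gene, so the deposited coordinates match that build. The notes name mm9 instead, and positions in mm9 were not compared. Which build the reads were aligned to is therefore uncertain. Members, gene lists and tests were chosen with earlier results of these data known. Values are given for all members, for the called genes of the other carbohydrate list and for the most abundant uncalled gene of each of its roles. The log2 values, counts and motif searches used Python 3.11.15, numpy 2.4.6 and pandas 2.3.3.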

Additional observations from a re-analysis of the deposited data

How the results depend on the processing

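The 16 called members kept their direction with sums over isoforms, a setting that could change only Pfkfb3, Gapdh, Pkm and Ldha among them. The others have 1 isoform row each. A pseudocount of 1 FPKM, added to both groups, cannot turn a direction. Centring on the median of expressed isoforms (-0.11) could not either, since the smallest called change was 0.94 (Pgam1). Under the 7 other settings for calls, the number of members called higher stayed between 11 and 13 and that called lower between 2 and 4. Pfkfb3, Pdk3 and Rpia were lost at an adjusted p under 0.01, Pgam1 and G6pdx when a log2 change of 1 or more was required, and Pdk2 was gained as lower at an adjusted p under 0.1. Of the 28 uncalled members, Hk1 and Pdp1 changed sign with isoform sums, and Pfkfb2 and Pgd with centring. The members' median log2 fold change, 0.37, was 0.36 with the pseudocount, 0.23 with isoform sums, 0.48 after centring and 0.38 among members reaching 5 FPKM in either group. Over all isoforms, an adjusted p under 0.01 left 642 called higher and 823 lower, in place of 1006 and 1288, since the threshold is stricter. No paired analysis was possible because the table holds 1 pooled value per group, and for the same reason leaving out single replicates was not run.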
